A study of Mus musculus with 16 samples.

Results

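Accessible chromatin in cultured CD8+ T cells was examined at 679 regions that were strongly enriched but were called in few libraries. The assay was ATAC-seq, in which the Tn5 transposase cuts and tags DNA that is not packed away, so that sequenced fragments pile up where chromatin is open. Peaks of all 16 libraries on the 19 autosomes were merged wherever they shared at least 1 bp, which gave 510542 regions. A region became a member when at least 1 of its peaks reached a fold enrichment of 12, when at most 4 of the 16 libraries held a peak in it, and when it lay more than 1000 bp from every annotated transcription start. Fold enrichment is the pileup of fragments at the summit of the peak over the local background that MACS2 computed, with 1 fragment added to each. The members were thus selected on fold, on the number of libraries and on position, and those measures are given below as a description.

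The cells were spleen T cells carrying the OT-I receptor, activated with OVA peptide and then kept in IL-2 to form effector cells (TE) or in IL-15 to form memory cells (TM). Wildtype cells came from TPdh+/+ mice (WT), and TPdh-/- cells came from mice with a floxed Pdha1 allele crossed to Cd4-cre transgenic mice, so that the E1 subunit of the pyruvate dehydrogenase complex was lost in T cells and not in the whole animal. Young adult mice of both sexes were used, and each of the 4 groups (WT TE, TPdh-/- TE, WT TM, TPdh-/- TM) had 4 libraries. The question behind the comparison was whether loss of this complex, a source of the acetyl-CoA used to acetylate histones, changes chromatin accessibility. The labels tie no library to a mouse or a culture, so p-values measure the spread between libraries, which may be technical.

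Most accessible sites far from transcription starts are enhancers, where sequence-specific factors such as AP-1, ETS, RUNX and T-box proteins displace nucleosomes in activated CD8+ T cells. Short tandem repeats, or microsatellites, are a separate class of sequence in which a unit of a few bases is repeated head to tail. The vertebrate telomere is built from tandem copies of TTAGGG, and copies of this repeat also lie inside chromosome arms.

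The libraries differed in depth and in the number of peaks. Between 2270 and 84359 autosomal peaks were called per library, 628947 in all, and the lowest local background of a library was between 0.173 and 1.55 fragments per base, with the WT TE libraries at 0.636 to 1.55 and all others at 0.173 to 0.572. A fold of 12 therefore needed a pileup of at least 13.1 to 29.6 fragments, depending on the library. Promoters of the 8 CD8 T cell markers tested (Cd8a, Cd8b1, Cd3e, Cd3d, Cd3g, Cd2, Ptprc, Lck) held a peak in 0 to 8 of the 16 libraries, with Cd8b1 at 8 and Cd2 at 0. Cd4 was at 0, and markers of B cells, myeloid cells, NK cells, erythroid cells and epithelium were at 0 to 4.

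Sequences at the summits of 3 members with a tandem run are shown because most members had such a run, and that of the Sirt5 site because it has no run and its peak follows an exon. Each line gives the summit base and 100 bases to each side on the plus strand of GRCm38, from RefSeq, 5′ to 3′, with every perfect tandem run of 20 bp or more (units of 1 to 6 bp) in capitals. The last line gives the Sirt5 site with 20 bases to each side of the peak and the exon in capitals.
AGG-rich site near Gm18945, chr13:117141386-117141586: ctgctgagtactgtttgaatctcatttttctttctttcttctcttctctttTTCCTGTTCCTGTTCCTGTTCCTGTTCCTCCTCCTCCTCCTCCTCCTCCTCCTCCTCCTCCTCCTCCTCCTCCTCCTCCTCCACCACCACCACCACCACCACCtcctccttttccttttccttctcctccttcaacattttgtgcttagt
AG site near Gm7624, chr8:65274702-65274902: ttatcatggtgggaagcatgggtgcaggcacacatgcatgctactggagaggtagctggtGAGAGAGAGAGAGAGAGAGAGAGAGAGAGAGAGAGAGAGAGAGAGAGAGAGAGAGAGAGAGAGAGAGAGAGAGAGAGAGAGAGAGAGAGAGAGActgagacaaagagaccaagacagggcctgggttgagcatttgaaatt
AC site in an intron of Kat2b, chr17:53628720-53628920: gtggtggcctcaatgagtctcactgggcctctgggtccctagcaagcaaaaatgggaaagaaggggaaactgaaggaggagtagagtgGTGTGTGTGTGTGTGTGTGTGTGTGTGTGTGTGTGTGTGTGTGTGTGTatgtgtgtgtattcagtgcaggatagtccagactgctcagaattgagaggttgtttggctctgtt
Sirt5 exon site, chr13:43383088-43383253: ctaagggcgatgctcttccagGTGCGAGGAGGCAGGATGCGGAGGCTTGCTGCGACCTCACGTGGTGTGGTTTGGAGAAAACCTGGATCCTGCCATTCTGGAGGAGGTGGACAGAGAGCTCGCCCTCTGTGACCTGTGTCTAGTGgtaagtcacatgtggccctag
The AG site held 94 bases of 1 dinucleotide, and its central 50-mer occurred 197106 times in the genome when both strands were counted. The Sirt5 site held no tandem run.

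Most members had a tandem run near the summit. A perfect run of 20 bp or more lay within 100 bases to each side of the strongest summit in 479 of the 679 members (70.5%), against 23.5% of the 463666 other regions more than 1000 bp from a start. The unit was AG, read as CT on the other strand, in 187 members (27.5%, against 5.2% of other distal regions). It was AC, read as GT on the other strand, in 173 members (25.5%, against 11.2%). Units made of A and G alone, the dinucleotide and longer ones such as AGG, AAGG and AAG together, took 265 members (39.0%), against 8.44% of other distal regions. The telomere unit AACCCT was rare in number but stood far from its background, at 10 members (1.47%) against 0.00949% of other distal regions. The runs were long, with a median of 53 bp for AG, 46 bp for AC and 86 bp for the telomere unit. In the remaining 200 members no run reached 20 bp.

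The share of regions with a run rose with fold enrichment among distal regions held by at most 4 libraries. It was 14% at a highest fold of 2 to 4, 26.7% at 4 to 6, 53.0% at 6 to 8, 62.8% at 8 to 10 and 68.3% at 10 to 12. Among members it was 69.0% at 12 to 15 and 82.3% in the 79 regions at 15 or more. The threshold of 12 thus fell within a gradient and not at a step. The AG share climbed from 2.11% in the lowest bin to 36.7% in the highest, whereas the AC share was highest at 10 to 12 (30.1%) and stood at 16.5% in the highest bin.

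**Figure D1:**
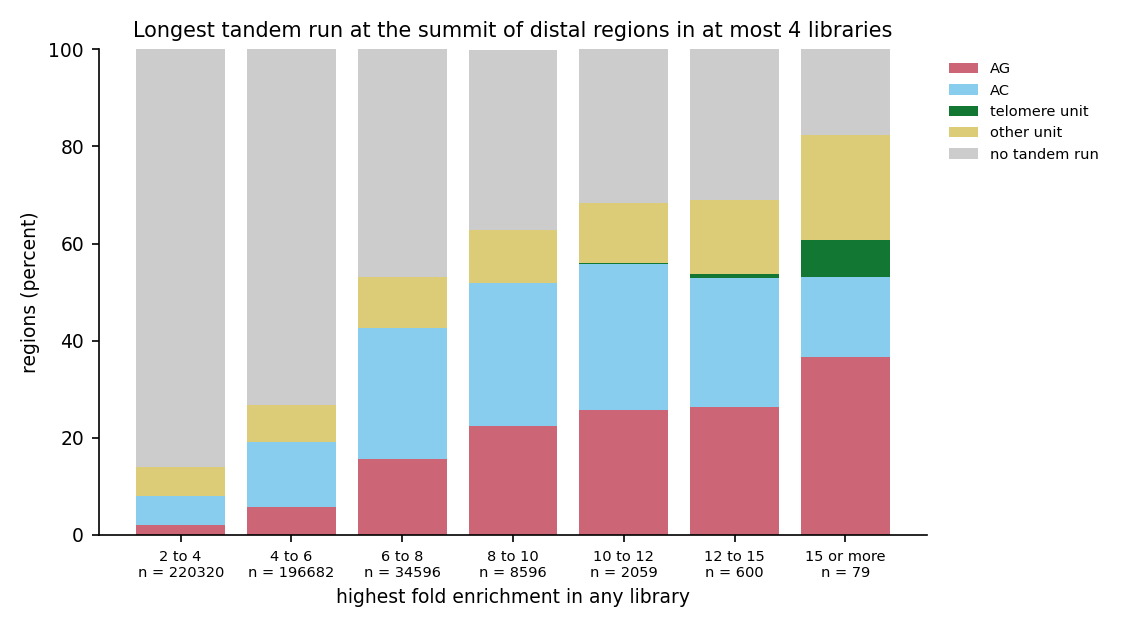
Stacked bars give the percentage of distal regions held by at most 4 libraries (y axis) whose longest tandem run at the strongest summit has each unit, by the highest fold enrichment in any library (x axis). The share without a run falls from 86.0% at a fold of 2 to 4 to 17.7% at 15 or more; the 2 bars on the right are the members.

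In the members the share of bases inside a run was highest at the summit. There 43.3% of summit bases fell inside a run, fewer than the 70.5% with a run within 100 bases to each side, and the share declined to 2.94% at 450 to 500 bp away. In other distal regions of chromosome 19, used as a comparison set of 11281 regions, the share was 6.5% at the summit and 1.57% at 450 to 500 bp. The 153 distal regions that reached a fold of 12 but were held by 5 or more libraries had 35.3% at the summit. Several traits of the members were as common or more common there. These 153 regions had a repeated central 50-mer in 44.4% (28.6% of members), a median of 90% lower-case bases (58.2%), a median GC content of 49.8% (45.3%), a median width of 496 bp (368 bp) and 34% inside genes (39.8%). A run was in 49.7% of them (70.5% of members). They differed from the members in the units they carried. Of these 153 regions 18 (11.8%) had the telomere unit, 9 (5.88%) had AG and 15 (9.80%) had AC.

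**Figure D2:**
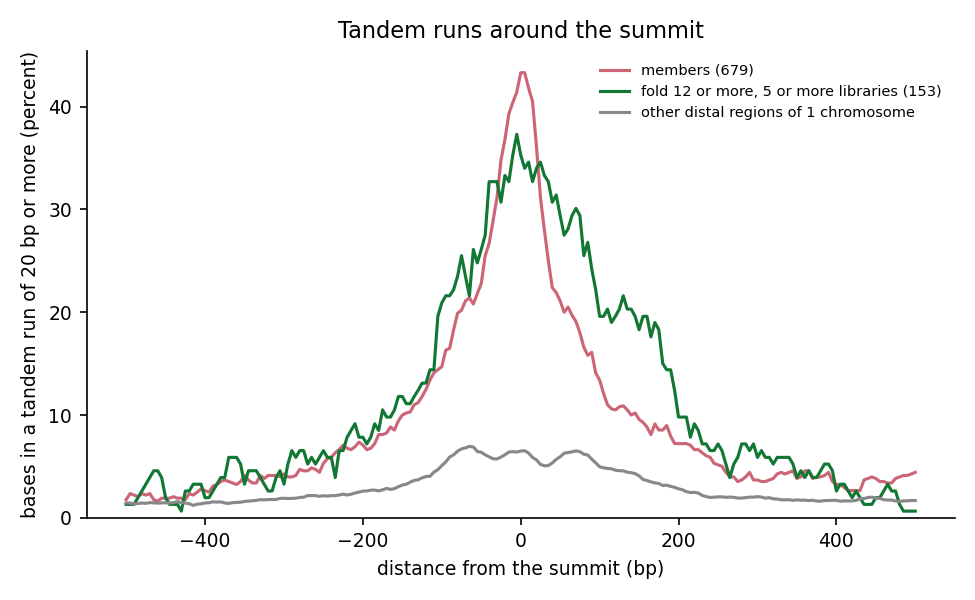
Percentage of bases inside a tandem run of 20 bp or more (y axis) by distance from the summit in bp (x axis), for members, for strongly enriched distal regions in 5 or more libraries and for other distal regions of chromosome 19. Members reach 43.3% at the summit and other distal regions 6.5%.

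Within each library, the peaks in member regions were compared with the other distal peaks of the same library, so that depth and library were held equal. The difference was taken per library and tested over the 16 libraries with an exact sign-flip permutation test, two-sided. Peaks with a run made up 64.2% ± 20 (SD, n = 16) of member peaks and 32.5% ± 11.1 of other distal peaks, a mean difference of 31.7 percentage points that was positive in 15 of 16 libraries (exact p = 0.000366, chosen for testing after the sequences had been seen). The exception was WT TE replicate 3, which held 1 member, with no run at its own summit. Bases in lower case in the RefSeq sequence, which marks interspersed and simple repeats, made up 51.6% ± 14.5 of member windows and 39.3% ± 2.84 of the others, a difference of 12.3 points (exact adjusted p = 0.00606, higher in 15 of 16 libraries). GC content was 45.8% ± 2.43 against 44.4% ± 1.96, a difference of 1.36 points (exact adjusted p = 0.0186, higher in 15 of 16). The GC call was lost with at most 2 libraries, where 15 of the 16 libraries had a member (exact adjusted p = 0.222). It was also lost with 200 bases to each side of the summit (0.843 points, exact adjusted p = 0.101). Without TPdh-/- TM replicate 2 it was lost too (exact adjusted p = 0.0691), when WT TE replicate 3 had no member left and dropped out as well. The GC difference was 2.1 points without WT TE replicate 2, 2.65 without WT TE replicate 4, 2.84 without TPdh-/- TE replicate 4 and 2.56 without WT TM replicate 2. It was larger with at most 8 libraries (2.84 points, exact adjusted p = 6.1e-05) and with only peaks of a -log10 q-value of at least 5 (3.29 points, exact adjusted p = 0.000854). These adjusted values and those of the next paragraph are Benjamini-Hochberg values over 4 tests. A region held by several libraries entered each of them, so the 16 differences were not fully independent.

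Copies elsewhere in the genome depended on the length considered. The central 50-mer of a member peak occurred more than once in GRCm38 in 25.7% ± 11 (SD, n = 16) of member peaks and in 10.4% ± 3.92 of other distal peaks, a difference of 15.2 points (exact adjusted p = 0.000854, higher in 15 of 16 libraries). With a longer stretch, the centre and 50 bases to each side, the shares were 1.40% ± 1.55 and 1.83% ± 0.594 and the difference was -0.428 points, with the opposite sign. Member peaks lay inside annotated genes less often, at 36.3% ± 11.4 against 48.3% ± 1.59, a difference of -12 points (exact adjusted p = 0.000366, lower in 15 of 16 libraries). The difference was -3.99 points at a fold of 10 or more, -19.5 at a fold of 15 or more and -7.7 in the libraries with at least 20 member peaks, and over regions the shares were 39.8% and 48.1%. When membership was limited to regions in at most 2 libraries, which left 15 libraries with a member, the gene body difference turned to 2.48 points. It did not pass the test (exact adjusted p = 0.630). With only peaks of a -log10 q-value of at least 5 in the merge, none of the calls on the run share, lower-case bases, repeated 50-mers and gene bodies held. The run share differed by 6.23 points (exact p = 0.187), lower-case bases by 2.17 points (exact adjusted p = 0.585), repeated 50-mers by 5.86 points (exact adjusted p = 0.276) and gene bodies by -8.62 points (exact adjusted p = 0.0709).

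The members were spread over all autosomes, at 19.4 to 40.7 per 100 Mb, and 409 lay between genes, 262 in introns and 8 in exons. As merged regions they were wider than other distal regions, with a median of 368 bp against 206 bp, and 345 members joined peaks of at least 2 libraries. Within libraries the median member peak was narrower than other distal peaks in WT TE replicates 1, 2 and 4 and wider in the rest. Among the members 19 neighbouring pairs lay within 100000 bp of each other. In all, 2 members lay within 1000 bp of an assembly gap and 4 within 500000 bp of a chromosome end.

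Members were held unevenly by the libraries. WT TE replicates 1 to 4 held 12, 28, 1 and 4 members. TPdh-/- TE replicates 1 to 4 held 50, 55, 145 and 108. WT TM replicates 1 to 4 held 129, 66, 60 and 73. TPdh-/- TM replicates 1 to 4 held 123, 98, 91 and 176. The WT TE libraries were below every other library, and the ranges of the other 3 groups overlapped. The counts moved with the number of peaks called, which was 2270 to 18783 in the WT TE libraries and 13039 to 84359 in the others. At the border, WT TM replicate 3 held 60 members on 13039 peaks and WT TE replicate 2 held 28 on 18783, whereas TPdh-/- TM replicate 2 held 98 on 84359. The WT TE libraries were also those with the highest background, where a fold of 12 needed the most fragments. The part of peak number and background in the counts was not tested.

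**Figure D3:**
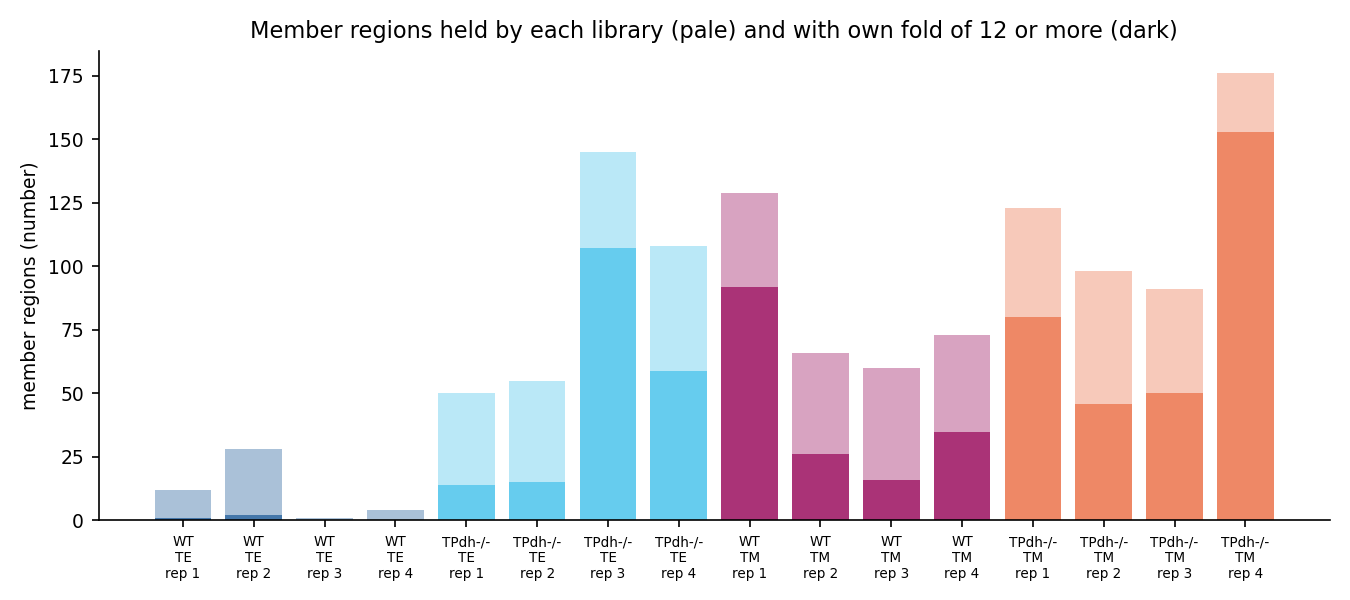
Number of member regions in which each library has a peak (pale bars) and in which its own peak has a fold of 12 or more (dark bars), by library. TPdh-/- TM replicate 4 holds 176 members, 153 of them with its own fold of 12 or more; WT TE replicate 3 holds 1.

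A fold of 12 was nearly always reached in a single library. Of the members 666 had 1 peak of 12 or more and 13 had at least 2. Of the 1219 library peaks in the members, 523 were below 12, with a median fold of 5.06 and a median pileup of 6 fragments. At the strongest peak the pileup was 14 to 65 fragments with a median of 18, so no single library had more than 65 fragments at its strongest peak in a member. The pileup was solved from the deposited fold and p-value.

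Of the members 334 (49.2%) were held by 1 library, 197 by 2, 47 by 4 and the rest by 3. Among the 345 held by 2 to 4 libraries, 60 (17.4%) were held by 1 group alone, against 23.1% of other distal regions held by 2 to 4 libraries. These were 16 for TPdh-/- TE, 17 for WT TM, 27 for TPdh-/- TM and 0 for WT TE. The sets were not matched for the number of libraries holding a region, so these shares do not compare co-occurrence within a group. Of the members held by 3 or 4 libraries, 142 spanned more than 1 group. In that set 2 were of TPdh-/- TE alone, 3 of WT TM alone and 1 of TPdh-/- TM alone.

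The share of member peaks with a run was measured at the summit of each library's own peak. In WT TM it was 75.2, 77.3, 70 and 72.6% in replicates 1 to 4, and in TPdh-/- TM it was 71.5, 69.4, 54.9 and 45.5%. The 2 highest TPdh-/- TM libraries were within or just under the WT TM range, and the other two lay well below it. The mean difference of -13.4 points did not pass the test (two-sided exact permutation p = 0.0571, adjusted p = 0.0571 over 4 added tests). It was -8.48 points without TPdh-/- TM replicate 4, -7.47 with runs of 12 bp or more and -1.96 at a fold of 15 or more. At a fold of 10 or more it was -16.4 points and passed (exact permutation adjusted p = 0.0381). With runs of 30 bp or more, a choice added after the data were seen, it was -17.6 points (exact permutation adjusted p = 0.0381). In TPdh-/- TE it was 74.0, 83.6, 77.2 and 75.0%, which was above every TPdh-/- TM library, with a mean difference of -17.1 points for TM minus TE. Its exact permutation p was 0.0286, the smallest that 4 against 4 libraries allow. The adjusted p was 0.0381 over 4 tests that included the comparisons with WT TE and 0.0571 without those. After adjustment the difference thus passed only with the comparisons with WT TE counted among the tests. In WT TE it was 66.7, 64.3, 0 and 50% on 12, 28, 1 and 4 peaks. WT TE was 32.2 points below TPdh-/- TE and 28.5 points below WT TM. These differences are a description with no test, because the members passed the fold limit almost entirely through the other groups. The strongest peak was in WT TE in 2 of the 679 members, the median fold of member peaks was 4.46 to 6.06 in the 4 WT TE libraries, and the share with a run rose with fold. With the members chosen again without WT TE replicate 3 the differences were 20.6 and 16.9 points. Without TPdh-/- TM replicate 2, when WT TE replicate 3 had no member left and dropped out too, they were 13.3 and 10.1 points. With members limited to regions in at most 2 libraries, when a WT TE library had no member left and dropped out, they changed sign. They were then -12.7 points for TPdh-/- TE minus WT TE and -16.2 points for WT TM minus WT TE. For TPdh-/- TM against TPdh-/- TE, no adjusted p under 0.05 was possible with 1 library left out. Where the library was from these groups, 3 against 4 libraries cannot give a p under 0.0571, and where it was from another group the limit came from the other tests of the family. The unadjusted exact permutation p was above the smallest possible without TPdh-/- TE replicate 4 (-18.8 points, p = 0.114) and without WT TM replicate 4 (-15.9 points, p = 0.0571), with the members chosen again.

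In other distal peaks the order of the genotypes was that of the member peaks in memory cells and the opposite one in effector cells. Their run share was 40.9% ± 5.09 in WT TE and 32.1% ± 6.34 in TPdh-/- TE (SD, n = 4 each), where member peaks were at 45.2% and 77.5%. It was 26.0 to 50.9% in the 4 WT TM libraries and 15.1 to 20.4% in the 4 TPdh-/- TM libraries, without overlap. The 4 TPdh-/- TE libraries, at 25.9 to 40.3%, also lay above every TPdh-/- TM library, as their member peaks did. Peaks were also wider in TPdh-/- TM replicates 3 and 4, where other distal peaks had medians of 294 and 314 bp, against 152 to 226 bp in the other libraries of both memory groups. The part of peak width and peak number in the run share of members was not tested.

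**Figure D4:**
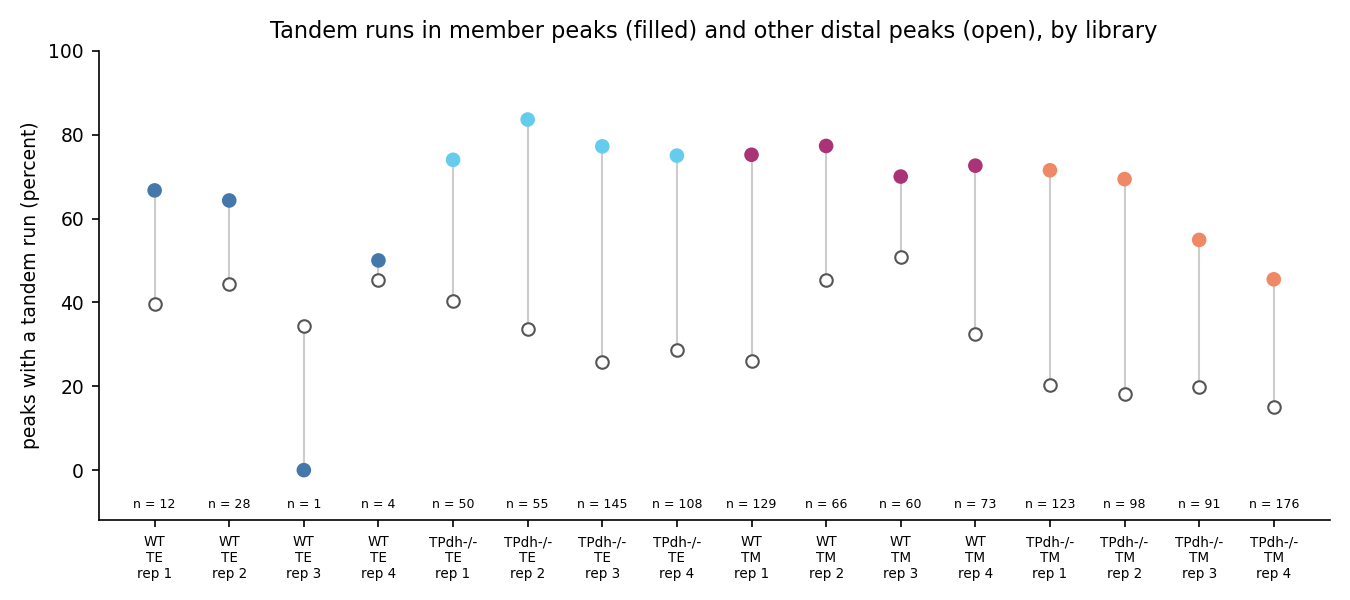
Percentage of peaks with a tandem run of 20 bp or more (y axis) in member peaks (filled) and in other distal peaks (open) of each library (x axis), with the number of member peaks under each. Member peaks are higher in 15 of 16 libraries; TPdh-/- TM replicate 4 has 45.5% in members and 15.1% in other distal peaks.

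At the main settings, lower-case bases and GC content gave no group difference that passed the test after adjustment. Lower-case bases were 52.2% ± 2.39 in TPdh-/- TM and 60.6% ± 1.06 in WT TM member peaks (SD, n = 4 each), and the libraries did not overlap. The difference of -8.36 points had the smallest p that 4 against 4 libraries allow (two-sided exact permutation p = 0.0286, adjusted p = 0.0762 over 8 tests). It was -5.29 at a fold of 10 or more, -4.64 at a fold of 15 or more and -4.26 with 200 bases to each side of the summit. With at most 8 libraries it was -9.64, and with only peaks of a -log10 q-value of at least 5 it was -7.9. Each of these had an exact permutation adjusted p of 0.0381. That adjustment counts the comparisons with WT TE among its tests, so they are not read as calls. Other distal peaks did not overlap either, at 35.4 to 37.2% in TPdh-/- TM and 37.5 to 45.7% in WT TM. Among effector cells the share of lower-case bases in member peaks was 56.5% ± 3.05 in TPdh-/- TE and 37.1% ± 24.8 in WT TE, a difference of 19.4 points, where 1 WT TE library had 1 member peak and a value of 0. WT TM was 23.5 points above WT TE. These differences from WT TE are again a description, and they fell to 10.3 and 14.4 points without WT TE replicate 3 and to 8.05 and 12.3 points without both it and TPdh-/- TM replicate 2, with the members chosen again. GC content was 44.7 to 47.7% in the 4 groups. The exact permutation adjusted p over 8 tests was 0.359 for TPdh-/- TM against WT TM. It was 0.274 for TPdh-/- TM against TPdh-/- TE. The GC differences from WT TE, -2.24 points for TPdh-/- TE and -2.59 points for WT TM, are again a description.

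TPdh-/- TM replicate 4 supplied the most members without a run. It had the strongest peak of 153 members, of which 81 had no run, so that 81 of the 200 members without a run were strongest there. A high share without a run was not particular to it, since it was 21 of 49 in TPdh-/- TM replicate 3 and 6 of 13 in WT TM replicate 3. Over the 526 members whose strongest peak was in another library 77.4% had a run, against 47.1% of the 153. Those 200 had a median GC content of 43.3%, a median of 26.4% lower-case bases and a repeated central 50-mer in 4.00%, against 42.2% in the AG members and in the AC members. In members with another unit a repeated central 50-mer was in 29.4%. The share held by 1 library was 62.5% in the members without a run, 56% with another unit, 43.4% for AC, 37.4% for AG and 30% for the telomere unit, and these differences were not tested.

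Members with the telomere unit had the highest median fold of the sequence classes. In the 10 of them the fold in the strongest library was 12.4 to 29.1 with a median of 17.1, against medians of 13 for AG and 12.9 for AC. Of the 10, 6 had at least 1 WT TM holder, 6 a TPdh-/- TE holder, 5 a TPdh-/- TM holder and 0 a WT TE holder. They did not keep to 1 genotype, and 8 of them lay between genes.

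The AGG-rich site near Gm18945, chr13:117141452-117141668, was held by WT TM replicates 1 and 3 at folds of 24.7 and 14.6. A poly-C run of 44 bp in an intron of Gm15218, chr14:45812782-45812992, reached 24.3 in WT TM replicate 1 alone. A site without a run near 4930573C15Rik, chr5:146675116-146675442, reached 23.3 in TPdh-/- TM replicate 4 alone, with a GC content of 59.7%. These 3 sites had no peak in TE cells, and no library had a pileup of more than 44 fragments there.

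The Sirt5 site had a different shape. Sirt5 encodes a mitochondrial enzyme that removes succinyl and malonyl groups from lysines. In WT TM replicate 3 a peak of 126 bp, chr13:43383108-43383233, covered a coding exon of 124 bp (chr13:43383109-43383232, plus strand) with 1 base to spare on each side. Its fold was 23.6 on a pileup of 56 fragments over a local background of 1.42, and no other library held a peak there. Beyond those 2 bases, the sequence in lower case above lay outside the peak. The same library had a peak of fold 10.1 at chr13:43376756-43376918 within another annotated Sirt5 exon, where WT TM replicate 1 stood at 6.76 and WT TE replicate 3 at 4.06. A strongest peak whose ends were both within 10 bp of an exon's ends occurred in 1 of 679 members and in 0.0119% of other distal regions (55 regions). It was noticed by looking at the values.

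Among members with 3 or 4 holders, those with the highest median fold included sites without a run. The site in an intron of Pcnx2, chr8:125779071-125779237, was held by the 4 WT TM libraries and no other, at folds of 17.1, 15.3, 21.9 and 15.3 in replicates 1 to 4. It was the only member held by all 4 libraries of 1 group. The site in an intron of Il31ra, chr13:112578049-112578308, was spread over groups. Il31ra encodes a subunit of the receptor for IL-31. Its fold was 15.3 and 11.8 in WT TM replicates 3 and 2, 13.9 in TPdh-/- TE replicate 2 and 11.7 in TPdh-/- TM replicate 2.

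The site near Sp3os, chr2:73012735-73012921, was the 1 named member with high folds in WT TE cells. It stood at 14.2 in WT TE replicate 1, 14.1 in WT TE replicate 2, 12.4 in TPdh-/- TE replicate 3 and 11.4 in WT TM replicate 4. Its window had a GC content of 71.6%, the highest of the named members. The AG site near Gm7624, chr8:65274456-65275138, stood at 16.2 and 6.56 in TPdh-/- TM replicates 4 and 1 and at 13 in TPdh-/- TE replicate 4. A site near Pigk, chr3:152701655-152701848, with a 31 bp run of AAAAT, stood at 11.1, 14.8 and 12.6 in WT TM replicates 1, 2 and 3. Pigk encodes the catalytic subunit of the enzyme that attaches glycosylphosphatidylinositol anchors.

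**Figure D5:**
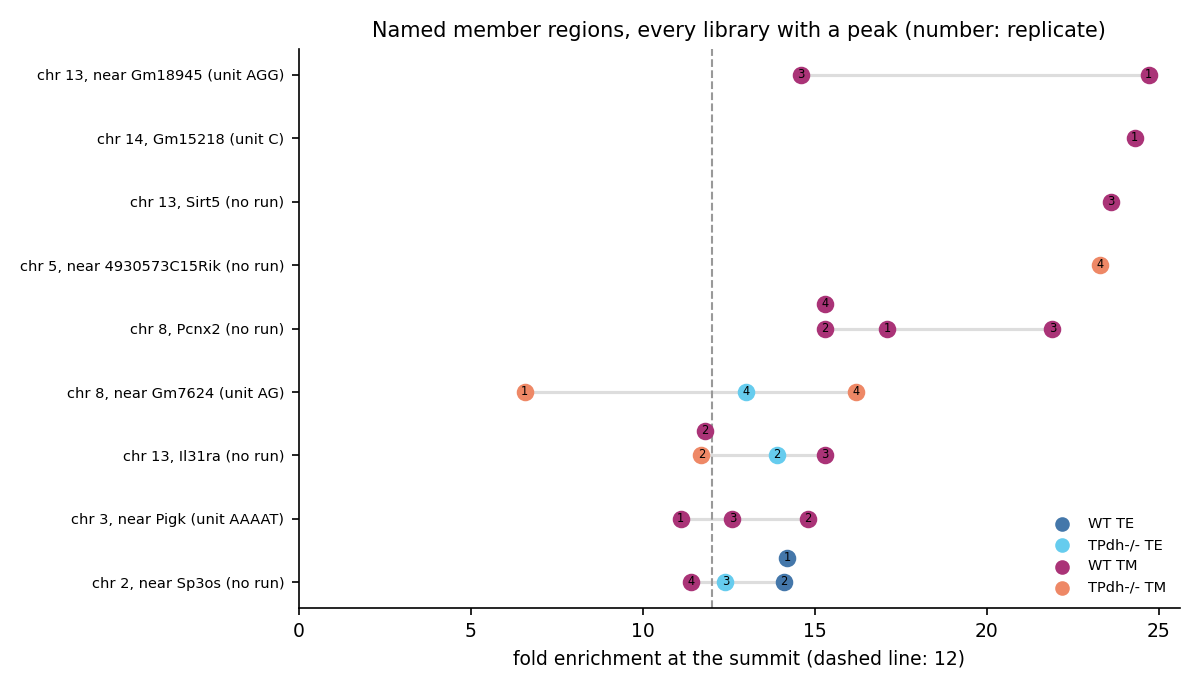
Fold enrichment at the summit (x axis) in every library with a peak, for the members with the highest fold or with the highest median fold among 3 or 4 holders (rows). Colours are groups, numbers are replicates, points at nearly equal fold are set apart vertically, and the dashed line marks 12; Pcnx2 has all 4 WT TM libraries past the line. Members with the telomere unit are not drawn.

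Within a single group, the strongest members held by at least 2 libraries of TPdh-/- TE were an AG site, chr6:111698657-111698882, at 15.3 and 3.95 in replicates 3 and 2, and an AC site in an intron of Skp2, chr15:9121009-9121463, at 14.5 and 4.18 in replicates 4 and 2. Skp2 encodes a substrate receptor of a ubiquitin ligase that acts in the cell cycle. For TPdh-/- TM they were a site without a run, chr14:48313692-48314245, at 16.4 and 8.80 in replicates 4 and 1, and an AC site, chr12:101291355-101291794, at 16.3 and 3.96 in replicates 4 and 2. In all 4 cases the second library was below 12, and in 3 of them it rested on 4 fragments.

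Members at genes of T cell function, histone acetylation and pyruvate metabolism were counted from lists. Genes were listed for T cell receptor signalling, memory and effector transcription factors, cytokine receptors, cytotoxic and cytokine genes, homing and adhesion, inhibitory receptors, histone acetylation enzymes, and pyruvate and acetyl-CoA metabolism. A member lay in the gene or within 5000 bp of it for 4 of the 160 listed autosomal genes (2.50%), against 1.35% of the 20807 protein-coding autosomal genes, and nothing is read from a difference on 4 genes. Of the 4, 1 was in a list of T cell genes and 3 in the acetylation and metabolism lists. Listed genes were longer, with a median of 26466 bp against 17629 bp. The first 3 lists and the homing and inhibitory lists had 0 members, and so did the 270 gene segments of the T cell receptor loci.

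The 4 genes came from 3 lists. Sirt2, an NAD-dependent deacetylase, held an intronic site without a run, chr7:28779770-28780527, at 12.7 and 6.92 in TPdh-/- TM replicates 1 and 2 and 5.08 in WT TE replicate 2. Kat2b, a histone acetyltransferase, held the AC site shown above at 12.1 in WT TM replicate 2 alone. The AC site near Gzmb, which encodes granzyme B, lay outside the gene, chr14:56264378-56264917, at 12.5 in TPdh-/- TE replicate 4 and 4.74 in TPdh-/- TM replicate 3. The site near Dlat, the acetyltransferase subunit of the pyruvate dehydrogenase complex itself, chr9:50632711-50633286, stood at 12.2 in TPdh-/- TM replicate 4, 4.84 in TPdh-/- TE replicate 4 and 4.06 in TPdh-/- TM replicate 3. All 4 were thus close to the threshold and past it in 1 library.

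Motifs of the T cell factors named first were in members at shares near those of other distal regions, and the differences were not tested. In the summit base and 100 bases to each side, on both strands, the AP-1 motif (TGACTCA or TGAGTCA) was in 2.65% of members and 3.16% of other distal regions. The ETS motif (CCGGAAG or AGGAAGT) was in 3.83% and 5.19%, the RUNX motif (TGTGGTT) in 3.39% and 4.6%, and the NFAT core (GGAAAA) in 15.3% and 18%. The T-box motif (AGGTGTGA or TCACACCT) was in 0.736% and 0.860%, and TCF/LEF (CTTTGAT or CTTTGAA) in 6.33% and 7.88%. The other distal regions included the 23.5% with a run, and those without a run were not counted apart. They are thus no matched set for the 200 members without a run. In the 200 members without a run AP-1 was at 4%, ETS at 5.5%, RUNX at 6%, T-box at 1.5% and NFAT at 23%, each above the share in other distal regions. Others were below it, with TCF/LEF at 5.5%, the motif of GATA factors (AGATAAG) at 2.5% against 2.71%, IRF (GAAAGTGA) at 0% against 1%, NF-kB (GGAATTTCC) at 0% against 0.148% and the cyclic AMP element (TGACGTCA) at 0% against 0.102%. KLF (CCGCCC) was in 2.5% of all members, 6.5% of those without a run, 2.2% of other distal regions and 7.84% of the strong distal regions in 5 or more libraries. The telomere motif (TTAGGGTTA) was in 1.62% of members against 0.15%, and CA runs of 10 units were in 34.6% against 12.5%.

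Sites on both sides of the threshold are given for scale. Members with the lowest folds included sites near Gm29817 at 12.005 (1 holder, AG) and near Gm5671 at 12.005 (1 holder, AC). The regions just outside were near Gm26214 at 11.997 (2 holders, AG), in an intron of Dpp6 at 11.997 (1 holder, unit AAAGC) and near Kcnj8 at 11.996 (1 holder, no run).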

How the data were processed

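ATAC-seq was done on 16 libraries. Per the labels and methods, the authors trimmed reads with Trimmomatic, aligned them to GRCm38 with BWA 0.7.17, kept reads with a single alignment outside blacklisted regions using SAMtools, and called peaks in each library with MACS2 2.2.7.1 on paired fragments. The deposited peak lists hold, per peak, a fold enrichment (a ratio), the -log10 p-value and -log10 q-value, and an integer score; no counts were given. No peak passed the end of a chromosome of the RefSeq GRCm38 sequence used here.

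Autosomal peaks were merged, and starts, genes and exons were taken from GENCODE M21. Each library's highest peak in a region was used. Pileup and background were solved from fold and p-value together (142 of 628947 peaks were not solved, none of them a member), which gives the depth behind each value. Sequence measures were read in the summit base and 100 bases to each side. The members, gene lists and measures were chosen with earlier results of these data known, and the run measure after the sequences were seen. Named regions were the 6 of highest fold, the 6 of highest median fold in 3 or 4 libraries, the 2 of highest fold per group held by at least 2 libraries of it alone, the highest in listed genes, and 3 on each side of the threshold. Single sites with the telomere unit and 1 site at the threshold are not reported here. Tests were exact permutation and sign-flip tests (SciPy 1.17.1) with Benjamini-Hochberg adjustment, checked on simulated data. Alternatives changed the thresholds, the windows, the oligomer length, the comparison peaks and the libraries used.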

Additional observations from a re-analysis of the deposited data

Results flagged for a closer look

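The genotype difference in member peaks had opposite signs in the cell types. For the share with a tandem run it was -13.4 points (TPdh-/- minus WT) in TM and 32.2 points in TE, a difference of -45.7 points. For lower-case bases it was -8.36 and 19.4 points, a difference of -27.8 points. Both passed a permutation test, but they rest on WT TE values from 12, 28, 1 and 4 peaks in regions whose strongest peak was in another group in all but 2 of 679 cases, so they are not independent of how the members were chosen and are given as a description. With the members kept as they were, the differences were -30.6 and -15.4 points without WT TE replicate 3 and -25.4 and -14.5 points without WT TE replicates 3 and 4. With members limited to regions in at most 2 libraries, a WT TE library had no member left and dropped out. The run share differences were then -16.2 points in TM and -12.7 points in TE, so they no longer had opposite signs. Those for lower-case bases were -5.89 and 5.8 points. GC content gave 1.82 points (permutation p = 0.454), which rests on the same WT TE peaks and is a description too. Background coverage moves with the groups, at 0.636 to 1.55 fragments per base in WT TE and at most 0.572 elsewhere, and its part was not tested.

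In 35 sets of 4 libraries checked for a value far from the rest, where chance gives about 1 in 20, 3 stood out. They were the background of WT TM replicate 3 at 0.572 fragments per base, the GC content of member peaks in TPdh-/- TM replicate 3 at 45.7%, and the lower-case bases of member peaks in WT TE replicate 3 at 0%, from 1 peak.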

How the results depend on the processing

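The number of members was 679, and it was 2738 with a fold of at least 10 and 79 with at least 15. Leaving out 1 library at a time gave 534 to 687. The labels do not say that equal replicate numbers mark shared mice or batches: over 1412 distal regions in 5 or more libraries, deviations of same-numbered libraries correlated at -0.0478 to 0.0675, and 2 of 16 were highest with their own number. With the replicate block, treating equal numbers as pairs, the differences were the same and 4 pairs cannot give a p under 0.125, so the run share differences (32.2, 28.5 and -17.1 points) could not pass. The last of these has an adjusted p of 0.0381 only with the comparisons against WT TE counted among the tests, and 0.0571 without them.

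Among member peaks minus other distal peaks, GC content missed the threshold when held by at most 2 libraries (1.45 points), with 200 bases to each side of the summit (0.843) and without TPdh-/- TM replicate 2 (1.21, exact adjusted p = 0.0691), where WT TE replicate 3 loses its only member and drops out too. The range over left-out libraries was 1.12 to 2.84. With only peaks of a -log10 q-value of at least 5, lower-case bases (2.17 points), gene bodies (-8.62), repeated 50-mers (5.86) and the run share (6.23) missed it. Gene bodies turned to 2.48 with at most 2 libraries and the centre copies to -0.428 with 50 bases to each side of the centre. The cause was not tested.

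Comparisons with WT TE compare regions chosen almost entirely through the other groups, so whether they pass is not read as a result, and their values are listed for completeness. The other comparisons of lower-case bases that pass below are adjusted together with them, each with an unadjusted exact p of 0.0286. They are not read as calls either. Between groups, with at most 8 libraries GC content passed for TPdh-/- TE against WT TE (-3.14) and WT TM against WT TE (-3.95), and lower-case bases passed in all 4 comparisons (TPdh-/- TM against WT TM -9.64, TPdh-/- TE against WT TE 22.1, WT TM against WT TE 24.7, TPdh-/- TM against TPdh-/- TE -7.01). Lower-case bases in TPdh-/- TM against WT TM were also -5.29 at a fold of 10, -4.64 at a fold of 15 and -4.26 with 200 bases to each side, without passing. With the q-value limit GC content and lower-case bases passed likewise, at -11.3 and -12.2 for the first and -7.9, 35.1, 35.8 and -7.16 for the second. Signs turned without a call for lower-case bases, TPdh-/- TM against TPdh-/- TE, at a fold of 15 (2.17) and with 200 bases to each side (0.411). They turned for GC content, TPdh-/- TM against WT TM, beyond 2000 bp (0.0697) and between -0.842 and 0.0798 over left-out libraries, without WT TM replicate 1. For GC content, TPdh-/- TE against WT TE, they turned with at most 2 libraries (0.226) and between -7.38 and 0.223 over left-out libraries, without TPdh-/- TM replicate 2 and, with it, WT TE replicate 3, and for WT TM against WT TE with at most 2 libraries (0.595).

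For the run share, TPdh-/- TM against WT TM passed at a fold of 10 (-16.4) and, as choices added after the data were seen, with runs of 30 bp (-17.6), and was -1.96 at a fold of 15, -7.47 with runs of 12 bp and -17.4 to -8.48 over left-out libraries. TPdh-/- TE against WT TE was 49.9 at a fold of 15, 34.1 with runs of 12 bp and -12.7 with at most 2 libraries. WT TM against WT TE was 14.4 and 29.7 at folds of 10 and 15. It was 29.7 and 26.3 with runs of 12 and 30 bp and -16.2 with at most 2 libraries. Both are a description. TPdh-/- TM against TPdh-/- TE had an unadjusted exact p of 0.0571 at a fold of 15 (-22.2) and with runs of 12 bp (-11.8). With own fold of 12, WT TE keeps 2 libraries and p cannot go under 0.133 (56.5 and 53.9 points against WT TE). TPdh-/- TM against TPdh-/- TE kept its unadjusted exact p of 0.0286 with own fold of 12 (-18.9), at most 2 libraries (-19.7) and at least 20 member peaks (-17.1, the same value), and its adjusted p was above 0.05 because of the other tests or their smaller number. Over left-out libraries, where no adjusted p under 0.05 was possible, these 3 ranged over 13.3 to 45.3, 10.1 to 42.4 and -21.1 to -12.2, and for the last the unadjusted exact p was also above its smallest value without TPdh-/- TE replicate 4 (0.114) and without WT TM replicate 4 (0.0571). With at least 20 member peaks WT TE keeps 1 library and gives no test. Lower-case bases against WT TE ranged over 8.05 to 23.8 (TPdh-/- TE) and 12.3 to 28 (WT TM) over left-out libraries.

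Pileups were 14 to 65 fragments at the strongest peaks, where the fold limit sets the lower end, and had a median of 6 at the member peaks below a fold of 12. Absence of a peak in a library does not show closed chromatin.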

Other observations

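The same fold and library limits were applied to the X chromosome, which the members leave out. Of 13309 merged regions there, 19 reached a fold of 12 in at least 1 library and were held by at most 4 libraries, at any distance from a start.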
